A study of Mus musculus with 10 samples.

Results

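Transcripts that mark other blood and lung leukocytes were examined in RNA from sorted lung eosinophils. Members were the genes of a list of 40 T cell, natural killer (NK) cell, B cell, plasma cell, macrophage, monocyte, dendritic cell, neutrophil, platelet and erythroid genes whose symbol was found in the deposited table. Of the 40, 38 had a row among the 35725 rows; Trac and Ear3 were not analysed here. The 5 P2ry14-null libraries came from male mice that lack the UDP-sugar receptor P2ry14, and the 5 wild-type (WT) libraries from male C57BL/6J mice; the labels give no age and no further allele. All mice of both groups went through the same asthma model: 2 oropharyngeal doses of 50 µg ovalbumin with 20 µg Aspergillus oryzae protease, then an aerosol of 1% ovalbumin 7 days after the last dose, with lung eosinophils sorted 16 h later. Whether separate animals stand behind the libraries is not stated, so p-values measure only the spread between these libraries, which may be technical.

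An eosinophil sort takes a granulocyte from a tissue that also holds lymphocytes, resident macrophages, recruited monocytes, dendritic cells and neutrophils, and blood cells left in the vessels. Marker genes of those cells are used to follow what a sorted fraction still carries. Such markers are seldom exclusive: granulocytes share a marrow ancestry, and some genes named for one lineage are also transcribed in another.

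The shallowest library held 67.2 and the deepest 185 M reads (M, 1e6). Levels are reads per 1e6 reads (CPM) on library sizes scaled by TMM, a normalization that aligns most genes between libraries. A count of 3 reads, about the upper 95% limit for a library in which 0 were counted, was worth 0.0165 to 0.0445 CPM. The label was checked first: P2ry14 stood at 190.4 to 229 CPM in WT and at 21.8 to 24.2 CPM in P2ry14-null. The labels do not say which part of the gene is deleted. The eosinophil genes Siglecf and Ccr3, 2 of the 10 listed, held 1189 to 1352 and 1244 to 1603 CPM over the 10 libraries, so both were present in each. One library stood apart. P2ry14-null library 2 was the highest of the 10 for 25 of the 35 members that could be tested (71.4%), whereas it was the highest for 11.6% of all 15586 genes tested. In the same library the summed CPM of 10 genes of lung epithelium, endothelium and stroma was 79.1, against 7.34 to 21.2 in the other 4 P2ry14-null and 14.97 to 26.9 in the WT libraries. Fold changes of the tested members and medians of the wider lists are therefore given with and without it, while single genes of the wider lists are given from all 10 libraries. The library was singled out by the values of these same members, so p-values from fits without it are descriptive only.

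No leukocyte member differed between the genotypes past the threshold. Of the 35 members tested, 0 passed in edgeR's quasi-likelihood test (adjusted p of 0.999 for each, Benjamini-Hochberg over 15586 genes), where 0.0385% of all genes were called. DESeq2 also called 0 of the 35, against 0.115% of all genes, but gave 5 of them (Jchain, Fabp5, Mrc1, C1qb and Xcr1) no adjusted p. In edgeR the standard error (SE) of a member's log2 fold change had a median of 0.233 and reached 0.584. The median SE over all genes was 0.089, so the 0 calls do not show equal levels. At an unadjusted p under 0.05 in edgeR there were 5 members, against 4.13% of all genes. Of these, Ly6g, S100a8, Ngp and Clec9a were higher in P2ry14-null (1.46% of all genes) and Ly6c2 lower (2.67%). The expression ranges of the genotypes overlapped for each of the 38 members, where 0.648% of all tested genes did not overlap. Log2 fold changes (P2ry14-null minus WT) were above 0 for 26 of the 35 tested members with a median of 0.25, beside a median of 0.0025 and 51.2% above 0 over all genes. Without P2ry14-null library 2 the median was -0.15 and 15 of 35 lay above 0 (49.3% of all genes), so the direction of the list as a whole rested on that library. The classes differed in this. Without it 5 of 5 neutrophil, 5 of 6 T cell, 2 of 4 dendritic cell, 1 of 2 monocyte and 1 of 6 macrophage members lay above 0. The count was 0 of 4 for NK cells, 0 of 4 for B cells, 0 of 2 for plasma cells, 0 of 1 for platelets and 1 of 1 for erythroid cells. In RNA from a sorted population, fewer cells of a type and less RNA per cell cannot be told apart.

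Levels among the members spanned a wide range. Mean CPM over the 10 libraries was above 10 for 3 members (S100a9, Csf1r and Ly6c2), between 1 and 10 for 18, between 0.1 and 1 for 13, and below 0.1 for 4 (Camp, Marco, Xcr1 and Ppbp). To compare genes with each other, CPM was divided by the length of the merged exons in the GENCODE vM21 annotation, in kilobases (kb). By this measure S100a9 came first with a level of 222 CPM per kb and Csf1r next with 75.97; the ranges over the 10 libraries of these 2 did not overlap with each other or with those of the remaining members. Ly6c2 followed with 9.75 and Cd79a with 5.03 CPM per kb, and below Ly6c2 the ranges of neighbours in the order overlapped. For scale, the eosinophil genes Siglecf and Il5ra stood at levels of 450.5 and 60.6 CPM per kb. The 10 eosinophil genes listed ran from 5.78 for Prg3 and 9.51 for Epx to 2050 for Alox15, so their levels overlapped those of the members.

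**Figure D1:**
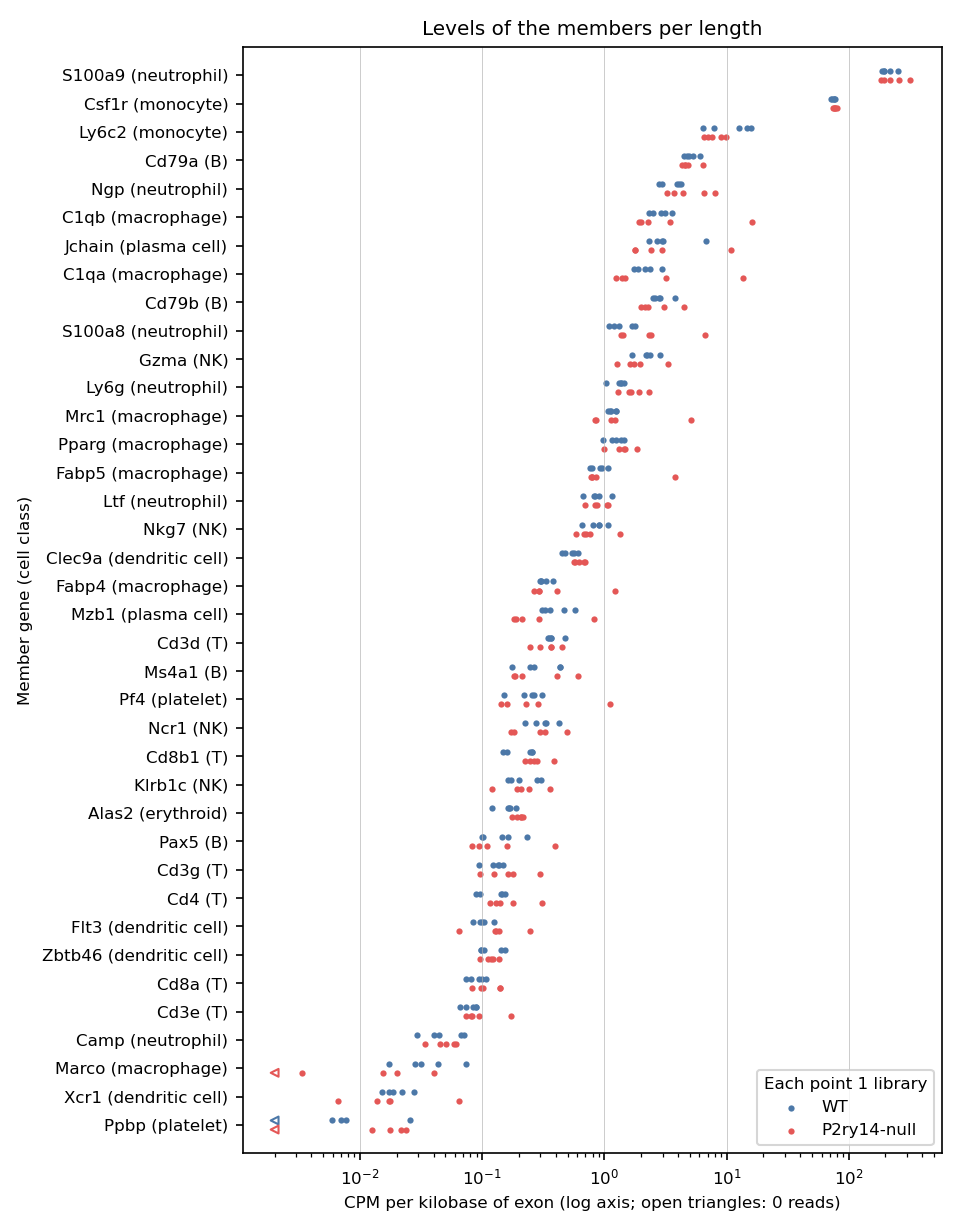
Level of each of the 38 members in each library, in CPM per kilobase of exon on a log axis, ordered by the mean over 10 libraries; each point is 1 library, blue for WT and red for P2ry14-null, and open triangles mark libraries with 0 reads. S100a9 and Csf1r stand apart at the top with means of 222 and 75.97 CPM per kb. A single red point lies far to the right of all others for macrophage genes such as C1qa, C1qb and Mrc1.

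Neutrophil genes held the member with the highest level per kb and also one of the lowest. S100a8 and S100a9 encode the partners of calprotectin, the major cytosolic protein complex of neutrophils, and lie close together on chromosome 3 of mm10 (S100a8, gene ID 20201, 90669071 to 90670034, plus strand; S100a9, gene ID 20202, 90692630 to 90695721, minus strand). Ngp and Camp encode neutrophilic granule protein and the cathelicidin antimicrobial peptide, and lie on chromosome 9 (Ngp, gene ID 18054, 110419808 to 110423012, plus strand; Camp, gene ID 12796, 109847377 to 109849456, minus strand). In the GENCODE annotation none of these 4 genes shares exon bases with another gene. The 250 bases before each start are shown, and whether their letters bear on the levels was not tested. The sequences are from the RefSeq promoter table of build GRCm38.p6, which had an entry for 29 of the 38 members. They are written 5′ to 3′ on the strand of the gene. Capitals mark each match, on either strand, to TTNNGNAA, a loose form of the element bound by C/EBP factors of granulocytes.
S100a8, chr3:90668821-90669070, plus strand: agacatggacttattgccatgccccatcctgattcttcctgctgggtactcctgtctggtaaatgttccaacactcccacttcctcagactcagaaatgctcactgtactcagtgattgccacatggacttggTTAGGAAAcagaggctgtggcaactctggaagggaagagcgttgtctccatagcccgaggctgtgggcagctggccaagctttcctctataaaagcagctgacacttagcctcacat
S100a9, chr3:90695722-90695971, minus strand: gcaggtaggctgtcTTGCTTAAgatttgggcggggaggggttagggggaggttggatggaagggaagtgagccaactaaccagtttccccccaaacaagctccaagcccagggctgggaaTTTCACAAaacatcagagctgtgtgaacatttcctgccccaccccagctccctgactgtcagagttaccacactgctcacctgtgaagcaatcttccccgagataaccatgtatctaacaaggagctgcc
Ngp, chr9:110419558-110419807, plus strand: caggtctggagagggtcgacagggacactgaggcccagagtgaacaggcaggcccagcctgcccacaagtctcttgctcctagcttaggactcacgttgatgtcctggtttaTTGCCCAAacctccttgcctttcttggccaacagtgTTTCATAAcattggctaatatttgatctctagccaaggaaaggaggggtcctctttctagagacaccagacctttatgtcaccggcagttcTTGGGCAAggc
Camp, chr9:109849457-109849706, minus strand: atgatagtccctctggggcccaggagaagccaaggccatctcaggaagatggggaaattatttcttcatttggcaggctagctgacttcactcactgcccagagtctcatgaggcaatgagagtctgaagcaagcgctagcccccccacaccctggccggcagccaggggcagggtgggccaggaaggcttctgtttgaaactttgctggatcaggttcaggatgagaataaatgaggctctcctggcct
The S100a8 window held 1 match, that of S100a9 2, that of Ngp 3 and that of Camp 0. Of 32536 windows of this length, 36.8% held at least 1 match, as did 15 of the 29 members with an entry. S100a8 was the one gene of the 4 with TATAAA in its window, 30 bases before the start; 12.3% of all windows held these letters on either strand. A match is a description of the letters and was not compared with binding data.

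Values are listed from here on in library order 1 to 5 for each group. S100a9 stood at 97.05, 101, 113, 102 and 132 CPM in WT and 134, 114, 96.9, 167 and 101 CPM in P2ry14-null. P2ry14-null library 4 was highest and the groups overlapped; the log2 fold change was 0.16 ± 0.14 (SE), 0.19 ± 0.14 without P2ry14-null library 2 and 0.028 when library 4 of that group was left out. S100a8 stood at 0.915, 0.754, 1.17, 1.23 and 0.829 CPM in WT and 1.66, 4.65, 0.951, 1.6 and 0.994 CPM in P2ry14-null. P2ry14-null library 2 lay far above the other 9, P2ry14-null libraries 1 and 4 were above the WT range, and P2ry14-null libraries 3 and 5 within it. The fold change of S100a8 was 1.01 ± 0.38 on the log2 scale (edgeR unadjusted p = 0.0213) and 0.38 ± 0.21 without that library (unadjusted p = 0.0889), which is a move of over 1.5 times. The level of S100a9 exceeded that of S100a8 in each library. Per kb of exon the ratio of S100a9 to S100a8 was 109.9 to 212 in WT, 107 to 138 in 4 P2ry14-null libraries and 32.5 in P2ry14-null library 2. In that library S100a8 was 4.68 times and S100a9 1.12 times the median of the other 9.

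Ngp stood at 5.02, 3.61, 5.18, 3.42 and 4.78 CPM in WT and 7.93, 5.39, 3.98, 9.93 and 4.53 CPM in P2ry14-null. P2ry14-null libraries 4 and 1 were the highest of the 10, and the other 3 P2ry14-null libraries lay within or close to the WT range. The log2 fold change of Ngp was 0.52 ± 0.23 (edgeR unadjusted p = 0.040), 0.57 ± 0.24 without P2ry14-null library 2, and 0.30 when library 4 of that group was left out. Camp rested on 3 to 8 reads per library and did not pass the filter on low counts. Over all libraries its pooled level was 0.0376 CPM in WT (27 reads; exact Poisson 95% interval 0.0248 to 0.0547) and 0.0367 CPM in P2ry14-null (24 reads; 0.0235 to 0.0546), and such intervals cover counting error only. Per kb of exon and summed over the 10 libraries, the level of Ngp was 86.6 times that of Camp (95% exact interval 65.8 to 116, counting error only). In single libraries this ratio ran from 41.4 to 146. The same 2 granule genes thus differed in level in the same order in both genotypes.

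Ly6g, the surface antigen by which mouse neutrophils are sorted, was chosen here after its values were seen. It stood at 1.24, 0.98, 1.3, 1.38 and 1.28 CPM in WT and 1.81, 1.56, 1.22, 2.18 and 1.5 CPM in P2ry14-null. P2ry14-null library 4 was highest, WT library 2 lowest, and P2ry14-null library 3 fell within the WT range. Its log2 fold change of 0.41 ± 0.15 had the smallest unadjusted p of any member (edgeR unadjusted p = 0.0187; adjusted p = 0.999), changed little without P2ry14-null library 2 (0.43 ± 0.16) and was 0.29 without P2ry14-null library 4. Ltf, which encodes the granule protein lactoferrin, ranged over 2.31 to 4.01 CPM with a log2 fold change of 0.036 ± 0.15 (0.049 ± 0.16 without P2ry14-null library 2). Of the wider neutrophil list, 0 of 6 tested genes passed (5 above 0, median 0.092; median -0.081 without P2ry14-null library 2). The azurophil granule gene Elane had 0 reads in all 10 libraries (upper 95% limit of 0.0445 CPM in the shallowest taken alone), and Mpo did not exceed 0.0476 CPM. Lcn2 and Csf3r had the smallest p of that list, with log2 fold changes of 0.70 ± 0.49 and 0.29 ± 0.24.

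**Figure D2:**
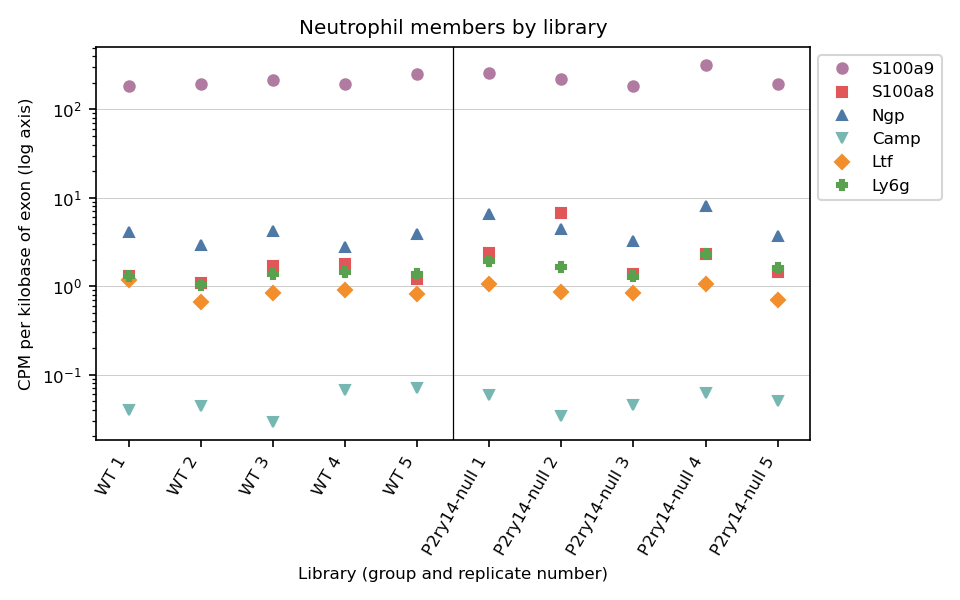
Level of the 6 neutrophil members in each of the 10 libraries, in CPM per kilobase of exon on a log axis, WT to the left and P2ry14-null to the right of the line. S100a9 lies 101 times (reads summed over libraries) above S100a8; the lowest ratio, in P2ry14-null library 2, was 32.5, and Camp lies below Ngp in each library.

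Monocyte genes behaved unlike each other. Csf1r, the receptor for colony-stimulating factor 1 on which monocytes and macrophages depend (gene ID 12978, chromosome 18, 61096809 to 61131139, plus strand), stood at 439, 416, 422, 438 and 446 CPM in WT and 443, 450.1, 433, 464 and 437 CPM in P2ry14-null. The spread was small, P2ry14-null library 2 was close to the rest at 1.03 times the median of the other 9, and the log2 fold change was 0.043 ± 0.042 with it and 0.039 ± 0.049 without it. In the annotation 873 of its 5774 exon bases overlap Hmgxb3 on the opposite strand, and the strand setting of the counting is not given in the sources used here, so reads of the 2 cannot be told apart there. Ly6c2, a surface antigen of inflammatory monocytes that is nearly a copy of its neighbour Ly6c1 and is therefore uncertain as a single gene, stood at 43.6, 17.6, 40.05, 21.5 and 34.4 CPM in WT and 19.2, 27.1, 24.7, 18.1 and 20.8 CPM in P2ry14-null. WT libraries 1, 3 and 5 were high, while WT libraries 2 and 4 were as low as the P2ry14-null libraries. The log2 fold change of Ly6c2 was -0.52 ± 0.22 (edgeR unadjusted p = 0.0346; adjusted p = 0.999), and it was -0.60 ± 0.23 without P2ry14-null library 2. Among the wider monocyte list 0 of 6 genes passed, 5 were above 0 and the median was 0.10 (0.015 without P2ry14-null library 2). Ccr2, the receptor by which inflammatory monocytes leave the marrow, had a log2 fold change of 0.32 ± 0.22 and Cx3cr1, the fractalkine receptor, 0.23 ± 0.23.

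The 2 members most raised in P2ry14-null library 2 were macrophage genes. C1qa and C1qb encode chains of complement C1q, which tissue macrophages make. C1qa stood at 3.1, 2.44, 1.95, 1.8 and 2.22 CPM in WT and 3.31, 14.1, 1.45, 1.54 and 1.31 CPM in P2ry14-null. C1qb stood at 3.9, 3.43, 2.74, 2.53 and 3.18 CPM in WT and 3.78, 17.4, 2.16, 2.46 and 2.08 CPM in P2ry14-null. For both genes P2ry14-null library 2 lay far above the rest (7.22 and 6.36 times the median of the other 9), P2ry14-null library 1 was near the upper end of the WT range, and P2ry14-null libraries 3 to 5 were below the lowest WT library. The log2 fold change of C1qa was 0.92 ± 0.58 with this library and -0.31 ± 0.25 without it. That of C1qb was 0.83 ± 0.53 with it and -0.28 ± 0.18 without it. The ratio of C1qb to C1qa per kb stayed within 1.09 to 1.53 over the 10 libraries.

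Mrc1, the mannose receptor CD206 of alveolar and other resident macrophages, stood at 7.07, 8.0, 7.99, 6.77 and 7.29 CPM in WT and 7.86, 32.5, 5.31, 7.21 and 5.43 CPM in P2ry14-null. Fabp5, a fatty acid binding protein of lipid-handling macrophages, stood at 3.28, 3.42, 2.72, 2.85 and 3.79 CPM in WT and 2.83, 13.5, 2.75, 3.08 and 2.85 CPM in P2ry14-null. Fabp4, its relative and a marker of alveolar macrophages, stood at 1.72, 1.33, 1.51, 1.37 and 1.35 CPM in WT and 1.3, 5.5, 1.2, 1.31 and 1.83 CPM in P2ry14-null. In each of these 3 genes P2ry14-null library 2 alone was high, at 4.51, 4.74 and 4.07 times the median of the other 9, and the remaining P2ry14-null libraries overlapped WT. The log2 fold change of Mrc1 went from 0.66 ± 0.43 to -0.21 ± 0.12 on leaving this library out. That of Fabp5 went from 0.65 ± 0.41 to -0.15 ± 0.11 and that of Fabp4 from 0.63 ± 0.37 to -0.040 ± 0.14. Pparg, the nuclear receptor that directs alveolar macrophage maturation, ranged over 2.9 to 5.48 CPM. P2ry14-null library 2 was its highest library too, at 1.4 times the median of the other 9, and the log2 fold change went from 0.19 ± 0.15 to 0.075 ± 0.14 without that library. The scavenger receptor gene Marco did not pass the filter on low counts, with 51 reads in the WT group, 20 in the P2ry14-null group and 0 in P2ry14-null library 3. With no filter its log2 fold change was -1.25 ± 0.62, the furthest below 0 of any member in that fit (edgeR unadjusted p = 0.0617; adjusted p = 0.848).

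Summed over the 7 macrophage members with a row, P2ry14-null library 2 held 88.6 CPM, the other 4 P2ry14-null libraries 15.8 to 23.4 CPM and the WT libraries 18.3 to 23.4 CPM. The wider macrophage list followed the same library. Of its 15 tested genes 0 passed the threshold and 11 were above 0 with a median of 0.31, against 4 of 15 above 0 and a median of -0.33 without P2ry14-null library 2. P2ry14-null library 2 was the highest of the 10 libraries for 12 of the 15. Folr2 and C1qc had the smallest p, with log2 fold changes of 1.10 ± 0.51 and 0.88 ± 0.60.

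**Figure D3:**
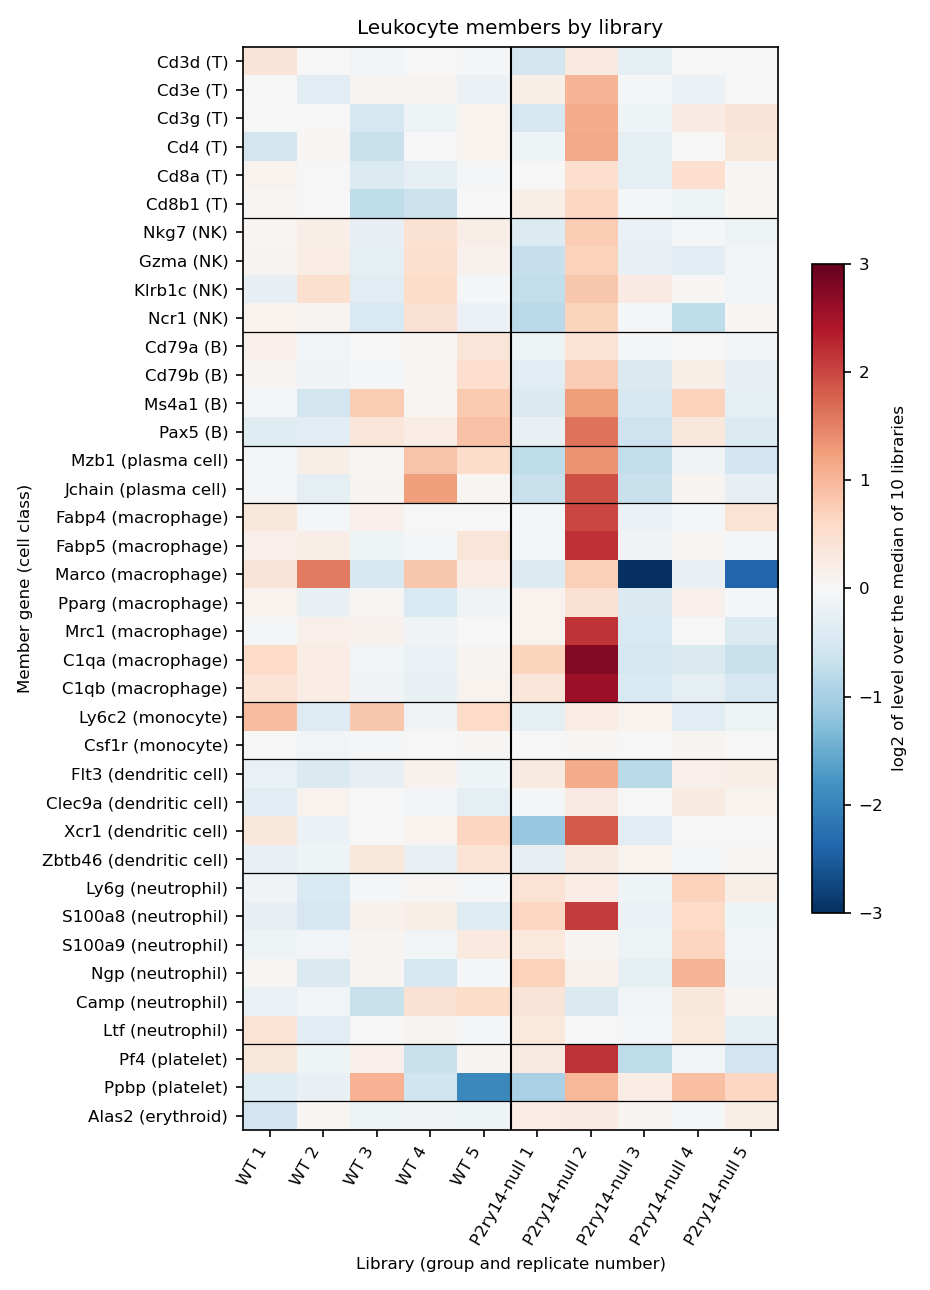
Each of the 38 members (rows, grouped by cell class) in each of the 10 libraries (columns, WT left of the line), as the log2 of its level over the median of the 10 libraries, with 0.5 reads added; colours end at -3 and 3. The column of P2ry14-null library 2 is red for 1 class after another, C1qa being 7.22 times the median of the other 9, while Csf1r, Clec9a and S100a9 stay pale; Marco, with few reads, is blue in P2ry14-null libraries 3 and 5.

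Plasma cell genes were raised in 2 libraries, 1 of each genotype. Jchain, which encodes the joining chain of secreted immunoglobulin A and M, stood at 6.82, 5.84, 7.62, 17.1 and 7.47 CPM in WT and 4.52, 27.3, 4.46, 7.52 and 6.04 CPM in P2ry14-null. P2ry14-null library 2 and WT library 4 stood out from their groups. Mzb1, an endoplasmic reticulum cofactor of immunoglobulin secretion, stood at 0.374, 0.435, 0.397, 0.704 and 0.568 CPM in WT and 0.222, 0.993, 0.231, 0.357 and 0.256 CPM in P2ry14-null. The same 2 libraries were the highest of their groups for Mzb1. For Jchain the log2 fold change was 0.16 ± 0.48, -0.67 ± 0.28 without P2ry14-null library 2, and 0.54 without WT library 4. For Mzb1 it was -0.23 ± 0.39 and, without P2ry14-null library 2, -0.88 ± 0.23. The latter had the smallest p of any member in that fit (edgeR unadjusted p = 0.0023, adjusted p = 0.911). That p is descriptive only, since the library left out was picked for its high values of members such as Mzb1. The exons of Mzb1 overlap those of a second annotated gene on the same strand over 695 of 1215 bases, so its reads may not all be its own. Over the wider plasma cell list 0 of 5 tested genes passed, 3 were above 0 and the median was 0.040, against 2 of 5 and -0.11 without P2ry14-null library 2; Sdc1 (0.62 ± 0.37) and Irf4 (0.36 ± 0.32) had the smallest p.

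B cell genes were highest in P2ry14-null library 2 to unequal degrees. Cd79a and Cd79b encode the signalling chains of the B cell receptor. Cd79a stood at 7.75, 6.59, 6.87, 7.25 and 8.91 CPM in WT and 6.27, 9.41, 6.62, 7.02 and 6.6 CPM in P2ry14-null. Cd79b stood at 4.09, 3.58, 3.72, 3.99 and 5.43 CPM in WT and 3.07, 6.44, 2.85, 4.39 and 3.28 CPM in P2ry14-null. P2ry14-null library 2 and WT library 5 were the highest of their groups for both genes, and the groups overlapped. Log2 fold changes were -0.054 ± 0.12 for Cd79a and -0.050 ± 0.21 for Cd79b, and -0.17 ± 0.090 and -0.29 ± 0.15 without P2ry14-null library 2. Pax5, the transcription factor that fixes B cell identity, stood at 0.877, 0.896, 1.44, 1.3 and 2.06 CPM in WT and 0.963, 3.48, 0.727, 1.42 and 0.84 CPM in P2ry14-null. In P2ry14-null library 2 Pax5 was 3.62 times the median of the other 9, against 1.37 times for Cd79a. For Pax5 the log2 fold change was 0.19 ± 0.40, and -0.42 ± 0.26 without that library. Ms4a1, which encodes CD20, ranged over 1.08 to 3.75 CPM and had a log2 fold change of 0.053 ± 0.35, or -0.32 ± 0.30 without the same library. Over the wider B cell list 0 of 8 tested genes passed, with 6 above 0 and a median of 0.030; without P2ry14-null library 2, 1 of 8 lay above 0 and the median was -0.46. Bank1, an adaptor of B cell receptor signalling, had the smallest p of that list (0.046 ± 0.060) and stood at 177 to 218 CPM, far above the other genes of the list. Blk, a Src family kinase, came next (0.15 ± 0.37).

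T cell genes were low. Each of the 6 members with a row had a mean below 1 CPM, and together they summed to 2.15 to 2.81 CPM in WT and 2.41 to 4.83 CPM in P2ry14-null, where the highest sum without library 2 was 3.07. Cd3d, a signalling chain of the T cell receptor complex, stood at 0.861, 0.67, 0.623, 0.659 and 0.637 CPM in WT and 0.445, 0.811, 0.537, 0.668 and 0.667 CPM in P2ry14-null. WT library 1 was highest, and the log2 fold change was -0.12 ± 0.17, or -0.23 ± 0.16 without P2ry14-null library 2. Cd3e, a second chain of that complex, stood at 0.343, 0.268, 0.364, 0.365 and 0.30 CPM in WT and 0.385, 0.701, 0.333, 0.303 and 0.34 CPM in P2ry14-null. For Cd3e P2ry14-null library 2 was high, with 0.303 to 0.385 CPM in the other 4 libraries of its group, and the log2 fold change went from 0.33 ± 0.23 to 0.034 ± 0.17 without it. Cd4, the co-receptor of helper T cells, stood at 0.389, 0.586, 0.358, 0.576 and 0.614 CPM in WT and 0.519, 1.25, 0.469, 0.559 and 0.718 CPM in P2ry14-null. The same library was highest, and the log2 fold change of Cd4 was 0.50 ± 0.27 with it and 0.18 ± 0.20 without it. Cd3g, Cd8a and Cd8b1, the last 2 being the chains of the co-receptor of cytotoxic T cells, had log2 fold changes of 0.46 ± 0.26, 0.32 ± 0.19 and 0.41 ± 0.22 over ranges of 0.309 to 0.98, 0.27 to 0.513 and 0.221 to 0.577 CPM. Without P2ry14-null library 2 these fold changes were 0.17 ± 0.20, 0.23 ± 0.19 and 0.26 ± 0.21. Among 9 tested genes of the wider T cell list 0 passed, 8 were above 0 and the median was 0.33, against 4 of 9 and -0.060 without P2ry14-null library 2; Themis (0.49 ± 0.26) and Bcl11b (0.49 ± 0.28) had the smallest p.

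Each of the 4 NK cell members was highest in P2ry14-null library 2. Gzma, which encodes the serine protease granzyme A of cytotoxic granules, stood at 2.19, 2.4, 1.68, 2.89 and 2.25 CPM in WT and 1.27, 3.33, 1.77, 1.64 and 1.96 CPM in P2ry14-null. Nkg7, a granule membrane protein of cytotoxic lymphocytes, stood at 0.739, 0.821, 0.601, 0.985 and 0.822 CPM in WT and 0.534, 1.22, 0.625, 0.691 and 0.641 CPM in P2ry14-null. P2ry14-null library 2 was the highest of the 10 for both genes, WT library 4 was the highest of the WT group and P2ry14-null library 1 the lowest of all. For Gzma the log2 fold change was -0.18 ± 0.22. Without P2ry14-null library 2, picked for its high values, it was -0.44 ± 0.16 (edgeR unadjusted p = 0.0151, adjusted p = 0.9999, descriptive only). That of Nkg7 was -0.080 ± 0.22, and -0.33 ± 0.16 without it. Klrb1c, which encodes the NK1.1 antigen, and Ncr1, which encodes the activating receptor NKp46, ranged over 0.356 to 1.06 and 0.267 to 0.759 CPM with log2 fold changes of 0.031 ± 0.26 and -0.074 ± 0.27, and of -0.19 ± 0.23 and -0.33 ± 0.23 without that library. In the wider NK cell list 0 of 10 genes passed, 3 were above 0 and the median was -0.13; without P2ry14-null library 2, 0 of 10 lay above 0 and the median was -0.31. Gzmb (-0.24 ± 0.19) and Klre1 (-0.27 ± 0.27) had the smallest p of that list.

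Dendritic cell genes split between steady and variable members. Clec9a, a receptor for dead-cell actin on conventional type 1 dendritic cells, stood at 1.49, 2.02, 1.87, 1.79 and 1.57 CPM in WT and 1.85, 2.26, 1.91, 2.28 and 2.04 CPM in P2ry14-null. P2ry14-null libraries 2 and 4 were highest, WT libraries 1 and 5 lowest, and the groups overlapped. Its log2 fold change was 0.25 ± 0.11 (edgeR unadjusted p = 0.043; adjusted p = 0.999) and 0.21 ± 0.12 without P2ry14-null library 2; 184 of its 3293 exon bases are shared with Clec1b on the same strand. Xcr1, a chemokine receptor of the same cells, stood at 0.0991, 0.067, 0.0772, 0.0831 and 0.123 CPM in WT and 0.0296, 0.285, 0.0611, 0.0777 and 0.0769 CPM in P2ry14-null. Xcr1 was high in P2ry14-null library 2 alone, rested on 2 to 44 reads per library, and its log2 fold change went from 0.33 ± 0.47 to -0.45 ± 0.31 without it. Per kb of exon, the level of Clec9a was 10.7 times that of Xcr1 in P2ry14-null library 2 and 17.2 to 84.5 times in the other 9. Zbtb46, a transcription factor of conventional dendritic cells, stood at 0.839, 0.888, 1.22, 0.831 and 1.3 CPM in WT and 0.815, 1.17, 1.05, 0.948 and 1.00 CPM in P2ry14-null. WT libraries 3 and 5 were highest for Zbtb46, and the log2 fold change was -0.021 ± 0.16, or -0.085 ± 0.17 without P2ry14-null library 2. Flt3, the growth factor receptor of dendritic cell precursors, ranged over 0.401 to 1.52 CPM with a log2 fold change of 0.48 ± 0.27 (0.16 ± 0.21 without P2ry14-null library 2). Of the wider dendritic cell list 0 of 8 genes passed, 6 were above 0 and the median was 0.24, against 2 of 8 and -0.20 without P2ry14-null library 2; Itgae (-0.19 ± 0.089) and Cd209a (0.69 ± 0.34) had the smallest p.

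The platelet and red cell members each stayed below 1 CPM in all 10 libraries. Pf4, the platelet chemokine platelet factor 4, stood at 0.221, 0.159, 0.193, 0.109 and 0.184 CPM in WT and 0.207, 0.798, 0.102, 0.163 and 0.115 CPM in P2ry14-null. In P2ry14-null library 2 Pf4 was 4.89 times the median of the other 9, and the log2 fold change was 0.70 ± 0.52 with it and -0.30 ± 0.28 without it. Ppbp, the gene next to Pf4 and a second platelet chemokine, stood at 0.00762, 0.00837, 0.0276, 0.0064 and 0 CPM in WT and 0, 0.0259, 0.0136, 0.0233 and 0.0192 CPM in P2ry14-null. Its reads summed to 8 in WT and 12 in P2ry14-null, with 0 reads in 1 library of each group, and it did not pass the filter. Alas2, which starts heme synthesis in erythroid cells, stood at 0.29, 0.452, 0.392, 0.403 and 0.399 CPM in WT and 0.504, 0.519, 0.462, 0.42 and 0.50 CPM in P2ry14-null. Each P2ry14-null library but library 4 exceeded the highest WT library, and the log2 fold change was 0.31 ± 0.15 (edgeR unadjusted p = 0.0565) and 0.28 ± 0.16 without P2ry14-null library 2. In the annotation 372 of the 2403 exon bases of Alas2 overlap genes on the opposite strand. Of the wider platelet list 0 of 5 tested genes passed, 2 were above 0 and the median was -0.026 (-0.015 without P2ry14-null library 2); Itga2b (-0.062 ± 0.052) and Gp9 (-0.33 ± 0.31) had the smallest p. Of 4 tested globin genes in the wider erythroid list 0 passed, 2 were above 0 and the median was -0.024, against 0 of 4 and -0.041 without P2ry14-null library 2; Hba-a1 (-0.15 ± 0.21) and Hbb-bt (-0.079 ± 0.24) had the smallest p.

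The excess in P2ry14-null library 2 varied from member to member, also within a class. Of the 35 tested members, 8 were at least 4 times the median of the other 9 libraries in this library, 8 were 2 to 4 times, 6 were 1.5 to 2 times and 13 were below 1.5 times. The first group held Jchain, Fabp4, Fabp5, Mrc1, C1qa, C1qb, S100a8 and Pf4. Csf1r, Ltf, S100a9, Ngp and Ly6g lay between 1.03 and 1.2 times. More than 2 times the median of the others was reached by 16 of the 35 members (45.7%) in this library, beside 3.73% of all tested genes, and by 0 or 1 member in each other library. Of the 76 tested genes in the wider leukocyte lists, this library was the highest for 49 (64.5%, beside 11.6% of all tested genes). The 4 class II genes H2-Ab1, H2-Eb1, H2-Aa and Cd74, which antigen-presenting cells express, summed to 417 CPM there, against 72.3 to 116 in the other P2ry14-null and 103 to 140.4 in the WT libraries. The 10 eosinophil genes summed to 8651 CPM in it and to 8678 to 9291 in the others. The part of these other cell types in the members' values was not tested.

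**Figure D4:**
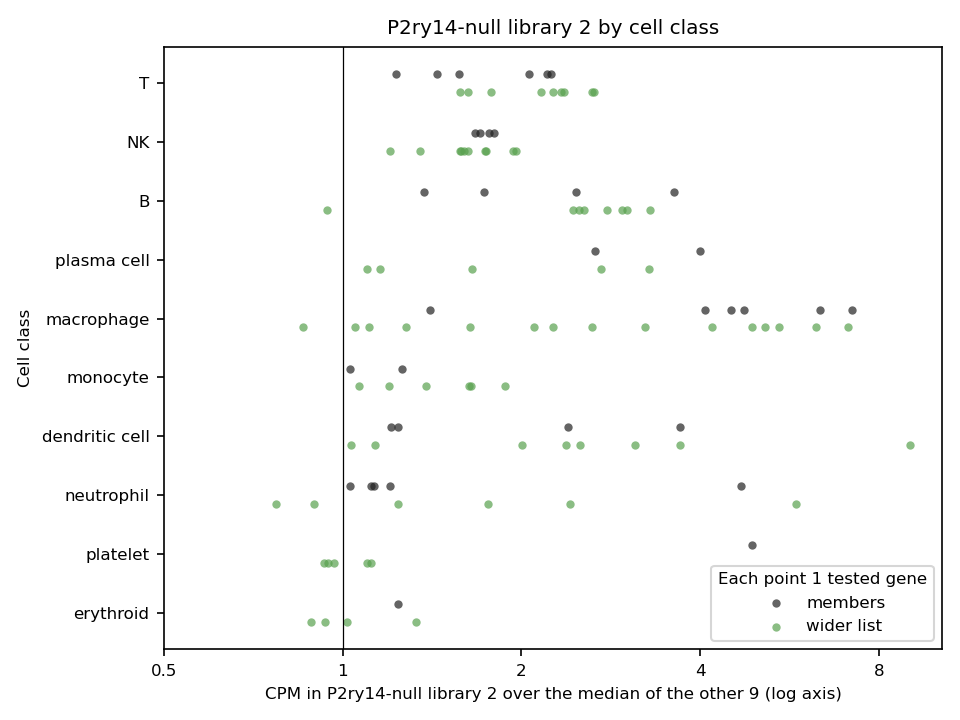
CPM in P2ry14-null library 2 over the median of the other 9 libraries, on a log axis, for each tested gene by cell class; black points are members and green points the wider list of the same class. C1qa lies at 7.22 and Csf1r at 1.03, and the NK cell genes of both lists lie between 1.2 and 1.96.

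Without P2ry14-null library 2 the comparison kept its lack of calls while many directions turned. Of the 35 members 0 passed in that edgeR fit (smallest adjusted p = 0.911), where 0.0193% of all genes were called. Log2 fold changes turned from above to below 0 for 11 members. P2ry14-null library 2 was the highest library for each of the 11, so leaving it out was bound to lower their fold changes. The library had been picked by the members' values, and the p-values and SE below are descriptive only. At an unadjusted p under 0.05 there were 6 members, against 4.08% of all genes. Gzma, Jchain, Mzb1 and Ly6c2 were lower in P2ry14-null (2.99% of all genes), and Ly6g and Ngp higher (1.09%). Ly6g, Ngp and Ly6c2 had been under that level with all libraries too. The median SE of a member's log2 fold change went from 0.233 to 0.177 without this library. Of the 76 tested genes of the wider leukocyte lists, 20 lay above 0 without this library, against 51 with all libraries. At an unadjusted p under 0.05 in edgeR there were 15 of the 76 without this library (4.08% of all genes). With all libraries there were 0 (4.13% of all genes).

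**Figure D5:**
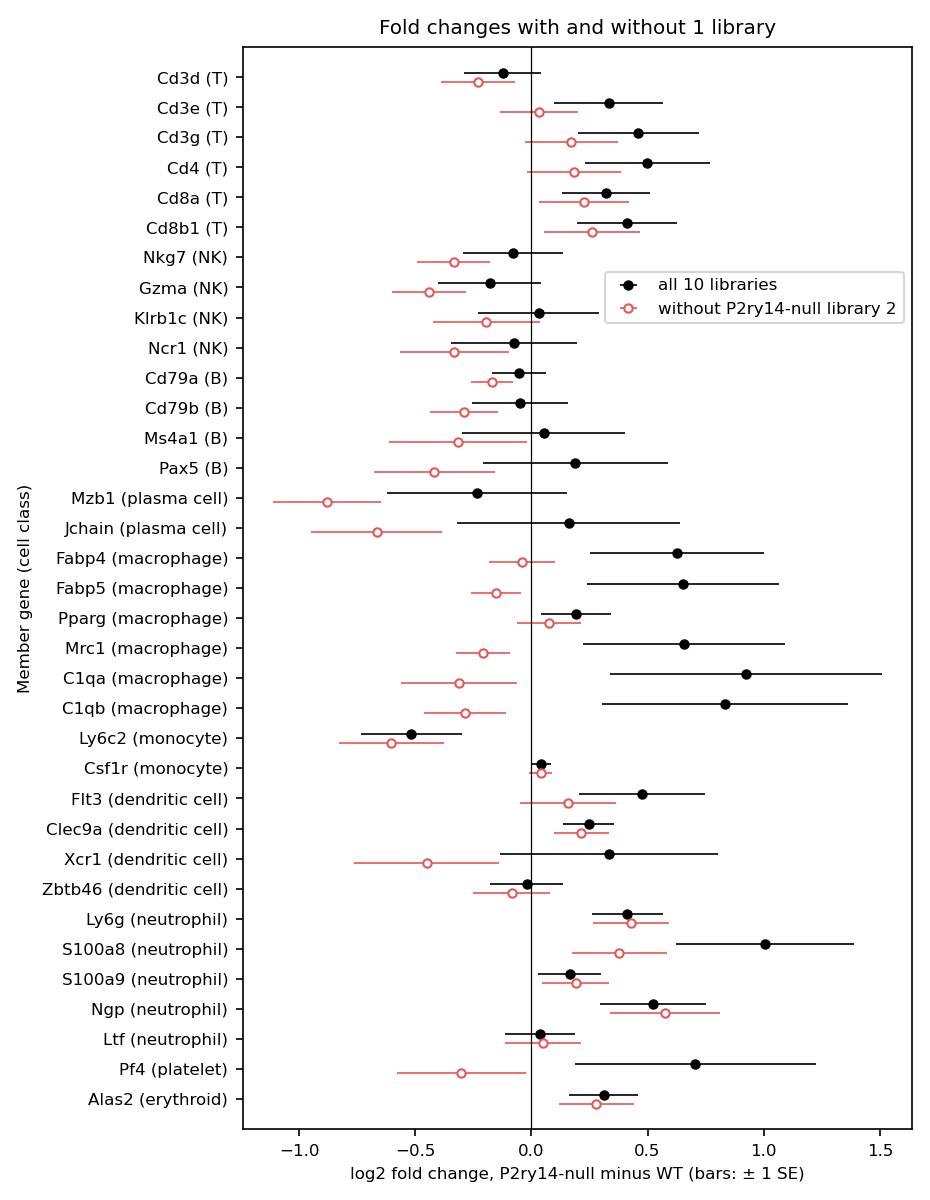
Log2 fold change of each tested member, P2ry14-null minus WT, with bars of 1 SE, from all 10 libraries (black) and without P2ry14-null library 2 (open red). Macrophage genes other than Pparg move from the right of 0 to its left, C1qa from 0.92 to -0.31, while Ly6g (0.41 and 0.43), Ngp and Ly6c2 hold their place.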

How the data were processed

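RNA from sorted lung eosinophils was sequenced in 10 libraries, 5 per genotype. Reads per gene are deposited as raw counts. The submitters' processing notes name mm10, the aligner STAR 2.5, featureCounts 1.5.0-p1 of Subread, and DESeq2. The sources used here do not give the annotation release, the strand setting or the handling of multiply mapping reads. Groups and replicate numbers came from the titles, which equal the column names. Rows were taken by symbol. No 2 libraries of a group agreed within sampling noise (chi-square of 23.2 or more per gene).

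Counts were fitted with edgeR 4.0.16 in R 4.3.3 (TMM, filterByExpr with its minimum of 10 counts, genotype alone) over 15586 genes, with a threshold of 0.05; the pipeline was tested on simulated data. The SE of a log2 fold change is its size over the square root of edgeR's F. Of the 35 members kept, 34 exceeded the filter's minimum in all 10 libraries, Xcr1 being the exception; Marco, Camp and Ppbp were not kept. Alternatives were RLE scaling, no filter, DESeq2 1.42.0, robust shrinkage, limma 3.58.1 voom with sample quality weights, a replicate block and each library left out. Values in each library are given for the 2 most abundant members of a class, members with an outlying library, members past the threshold or with groups apart, and the 6 most abundant whose sign turned on leaving out a library; Ly6g was added. The members, the wider lists and this rule were chosen with earlier results of these data known.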

Additional observations from a re-analysis of the deposited data

Results flagged for a closer look

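In 17 of the 76 sets of 5 libraries (38 members in 2 genotypes), 1 library lay further from the rest of its group than Dixon's 95% limit allows. About 1 in 20 independent sets of normal values would pass that limit. The 76 sets share the same libraries and some rest on few reads, so their count cannot be set against that rate. P2ry14-null library 2 was the high one in 14 of the 17. Among lymphocyte and plasma cell genes these were Cd3e (0.701 CPM, beside 0.303 to 0.385 in the other 4), Nkg7 (1.22 CPM, beside 0.534 to 0.691 in the other 4), Cd79a (9.41 CPM, beside 6.27 to 7.02 in the other 4), Pax5 (3.48 CPM, beside 0.727 to 1.42 in the other 4), Mzb1 (0.993 CPM, beside 0.222 to 0.357 in the other 4) and Jchain (27.3 CPM, beside 4.46 to 7.52 in the other 4). Among macrophage and dendritic cell genes they were Fabp4 (5.5 CPM, beside 1.2 to 1.83 in the other 4), Fabp5 (13.5 CPM, beside 2.75 to 3.08 in the other 4), Mrc1 (32.5 CPM, beside 5.31 to 7.86 in the other 4), C1qa (14.1 CPM, beside 1.31 to 3.31 in the other 4), C1qb (17.4 CPM, beside 2.08 to 3.78 in the other 4) and Xcr1 (0.285 CPM, beside 0.0296 to 0.0777 in the other 4). The last 2 were S100a8 (4.65 CPM, beside 0.951 to 1.66 in the other 4) and Pf4 (0.798 CPM, beside 0.102 to 0.207 in the other 4).

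The other 3 lay in WT. Cd3d was high in WT library 1 (0.861 CPM, beside 0.623 to 0.67 in the other 4), Cd79b in WT library 5 (5.43 CPM, beside 3.58 to 4.09) and Jchain in WT library 4 (17.1 CPM, beside 5.84 to 7.62). No low library was set apart in this way.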

How the results depend on the processing

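The 0 calls among the members held under RLE scaling, no filter, DESeq2, robust shrinkage, limma voom with sample quality weights, the replicate block and each of the 10 libraries left out. DESeq2 gave 5 members no adjusted p. The count over all genes was 18 in DESeq2 and 3 to 5 with a library left out, instead of 6. The median log2 fold change of the members ran from -0.15 when P2ry14-null library 2 was left out to 0.35 when P2ry14-null library 3 was. Members at an unadjusted p under 0.05, a count added after seeing the data, numbered 2 to 9 over these settings: 2 with quality weights, 2 on leaving out P2ry14-null library 4, and 9 on leaving out P2ry14-null library 3. Libraries with the same number showed correlations of -0.093 to 0.094 in their deviations. These values cannot decide whether equal numbers mark a pair, as smaller shared effects would not show in them. With the replicate block 6 genes and 0 members were called, and the median of the members was 0.18. The sign then turned for Klrb1c (-0.012), Ms4a1 (-0.062), Pax5 (-0.033) and Jchain (-0.19). With quality weights it turned for Klrb1c (-0.070), Ms4a1 (-0.032), Pax5 (-0.12), Jchain (-0.10) and Xcr1 (-0.11). The weight of P2ry14-null library 2 was 0.95, beside 1.29 to 1.44 in the rest of its group. WT libraries 1, 3 and 4 had lower weights of 0.45, 0.52 and 0.64, and WT libraries 2 and 5 had 1.53 and 1.34. Leaving out single libraries turned the sign of 17 members, whose log2 fold changes then ran over these ranges: Nkg7 -0.33 to 0.019, Klrb1c -0.19 to 0.17, Ncr1 -0.33 to 0.065, Cd79a -0.17 to 0.016, Cd79b -0.29 to 0.063, Ms4a1 -0.32 to 0.21, Pax5 -0.42 to 0.40, Jchain -0.67 to 0.54, Fabp4 -0.040 to 0.79, Fabp5 -0.15 to 0.82, Mrc1 -0.21 to 0.85, C1qa -0.31 to 1.16, C1qb -0.28 to 1.05, Xcr1 -0.45 to 0.50, Zbtb46 -0.085 to 0.079, Ltf -0.044 to 0.16 and Pf4 -0.30 to 0.93. None of these members passed the threshold in any setting, and the cause was not tested. Marco, Camp and Ppbp have fold changes with no filter alone (-1.25, -0.040 and 0.68 in this order), from at most 17, 8 and 5 reads per library.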

Other observations

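Some genes of the wider leukocyte lists stood at levels far above the members of their class and did not follow P2ry14-null library 2. Retnlg, a secreted resistin-like protein known from neutrophils, ranged over 3408 to 5104 CPM and was 0.896 times the median of the other 9 libraries there. Itgax, which encodes the integrin CD11c of macrophages and dendritic cells, ranged over 1190.5 to 1369.7 CPM (1.05 times), and Olr1, a receptor for oxidized lipoprotein, over 434 to 637 CPM (0.857 times). The integrin genes Itgb3 and Itga2b, whose products form the fibrinogen receptor of platelets, ranged over 191 to 260.4 and 96.2 to 114 CPM (0.968 and 0.928 times), while the platelet genes Pf4 and Ppbp did not exceed 0.798 and 0.0276 CPM. Bank1 held 0.939 times the median in that library. Chil3, a chitinase-like protein of alveolar macrophages, was both abundant and raised: it ranged over 235 to 1520.5 CPM, with 4.18 times the median in P2ry14-null library 2. The choice of these genes followed a look at their values.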
